A study of Mus musculus with 6 samples.

Results

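The transcripts described here encode 10 secreted signals that myoblasts can make: the CC chemokines Ccl2, Ccl7 and Ccl5, the CXC chemokines Cxcl1, Cxcl5 and Cxcl12, the cytokines Il6 and Lif, the growth factor Csf1 and the alarmin Il33. They were taken by gene symbol from a table of read counts that lists 47069 genes, and each symbol had a single row. All 10 had enough counts to enter the comparison, together with 14165 genes in all. The cells were myoblasts, the proliferating progenitors of muscle fibers, grown from muscle stem cells of mdx mice, which lack dystrophin and serve as a mouse model of Duchenne muscular dystrophy. The study's methods state that the stem cells were sorted with antibodies that leave out Sca-1-positive, endothelial and blood cells, and were expanded with serum and FGF2. In both groups the cells were mdx. They received either vehicle (DMSO in aqueous buffer) or 10 μM PSB-KD107, a synthetic agonist of the G protein-coupled receptor Gpr18, which the sample records write as PSB-KD-1. The records give 2 days of treatment and the study's methods a shorter, overnight one, and the methods describe young adult male C57BL/10 mdx mice for the injected animals, without saying separately which mice gave these cultures.

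Chemokines are small secreted proteins that guide leukocytes along a gradient, and they are grouped by the spacing of their conserved cysteines. Ccl2 and Ccl7 attract monocytes through Ccr2, Ccl5 acts on T cells and monocytes through CC receptors such as Ccr1, Cxcl1 and Cxcl5 attract neutrophils through Cxcr2, and Cxcl12 acts through Cxcr4. Il6 and Lif signal through the shared receptor subunit gp130, encoded by Il6st, to JAK kinases and STAT factors, Csf1 sustains macrophages through Csf1r, and Il33 is a nuclear protein released from damaged cells that is sensed by Il1rl1 with Il1rap. In injured muscle such signals bring in and maintain immune cells, and Il6 and Lif also act on myoblasts themselves.

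There were 3 libraries per group, numbered 1, 2 and 4 in the table, with total counts between 30917613 and 48756794. Levels are given as CPM (counts scaled to a common library total with TMM factors), and a floor of 3 counts corresponded to between 0.0596 and 0.0962 CPM, which covers counting error only. Myoblast markers summed to between 9827 and 10267 CPM in the vehicle libraries and between 8779 and 9248 CPM in the treated ones, and 10 of 10 were detected. Markers of the macrophage and monocyte lineage summed to between 4.0 and 5.74 CPM with vehicle and between 2.72 and 7.95 CPM with PSB-KD107, with Adgre1, Fcgr1 and C1qa at 0 in every library. Of this list, Cd68, Cd14 and Csf1r (4 counts) were highest in PSB-KD107 library 1, the library that was also highest for 6 of the 10 signals. There Cd68, a lysosomal protein of macrophages, was at 3.84 CPM (193 counts), beside 0.372 to 0.573 CPM with vehicle and 1.19 and 0.220 CPM in PSB-KD107 libraries 2 and 4. Cd14 had 37 counts in that library and between 0 and 10 in the other 5, whereas Itgam was highest in vehicle library 1. Mrc1 was lowest in PSB-KD107 library 1 (0.636 CPM) and highest in PSB-KD107 library 4 (1.76 CPM). Lyz2 had 3 counts in each vehicle library and 1 in each treated one. Ptprc had at most 1 count in any library and 0 in PSB-KD107 library 1. The part of these markers in the levels of the signals was not tested. Neutrophil markers stayed at or under 0.124 CPM, with S100a9, Ly6g, Retnlg and Csf3r at 0. PSB-KD107 library 4 stood apart. It had the highest level of the 6 libraries for 25.7% of all genes tested, and its Cxcl10, an interferon-induced chemokine, reached 29.2 CPM where the other 5 libraries held between 0.403 and 4.63 CPM. For the 10 signals, fold changes that rest on this library are given with and without it.

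Of these 10 signals, 9 had a higher fitted level with PSB-KD107 than with vehicle, but none of the differences passed the test after adjustment. The largest fitted differences were those of Ccl5, Il6 and Cxcl1, and Cxcl5 was the only signal with a lower fitted level. The median log2 fold change was 1.31 over the 10 transcripts and -0.00074 over all genes tested, of which 49.9% had a positive value. In edgeR's quasi-likelihood test, 0 of the 10 passed a Benjamini-Hochberg adjusted p of 0.05, as did 0% of all genes, and the adjusted p of the 10 ran from 0.404 to 0.867. At an unadjusted p under 0.05, Il6, Cxcl1 and Ccl7 were higher, 3 of 10 beside 6.47% of all genes, and 0 of 10 were lower beside 2.93% (9.4% in either direction). DESeq2 also called 0 of 10, where it called 2.77% of the 14698 genes to which it gave an adjusted p, and limma-voom called 0 of 10 and 0% of all genes. At an unadjusted p under 0.05, DESeq2 had 5 of 10 higher, Ccl5 and Cxcl12 besides those 3, beside 4.41% of the 24076 genes to which it gave a p-value. Limma-voom had 3 of 10 higher at that threshold, Ccl7, Ccl5 and Il6, beside 5.83%.

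**Figure D1:**
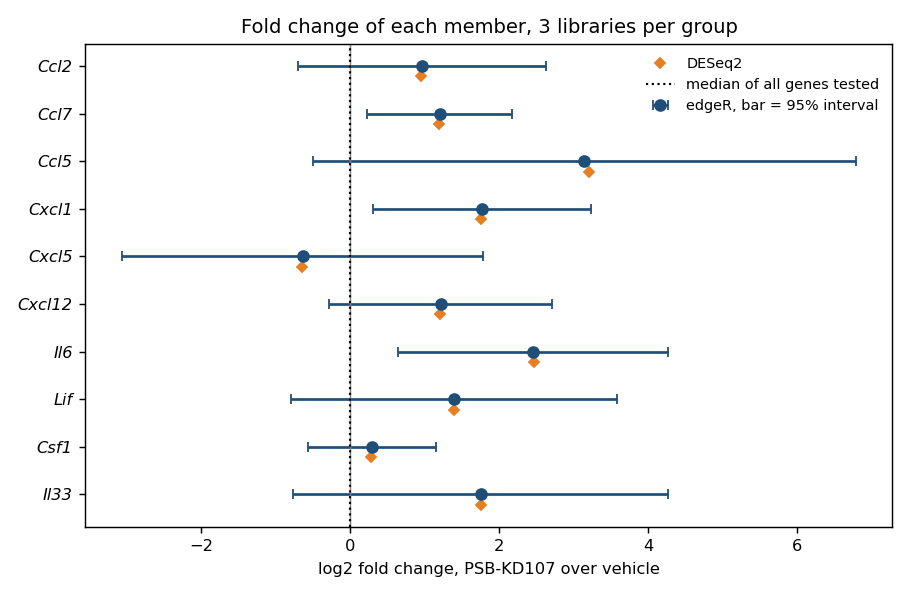
Fitted log2 fold change (PSB-KD107 over vehicle, horizontal axis) of each of the 10 transcripts, with circles and bars for the edgeR estimate and its 95% interval, diamonds for DESeq2 and a dotted line for the median of all genes tested. The intervals of Ccl7, Cxcl1 and Il6 lie above 0, the estimate of Cxcl5 is -0.64, and no transcript passed the adjusted threshold.

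The count of 3 at an unadjusted p under 0.05 changed when single libraries were left out. With edgeR it was 0 without PSB-KD107 library 1, 0 without vehicle library 4 and 1 without vehicle library 2. It was 4 without vehicle library 1, 5 without PSB-KD107 library 2 and 5 without PSB-KD107 library 4. The shares of all genes were not counted in these fits, so whether the change is particular to these signals was not tested. DESeq2 calls over all genes also moved, from 407 with every library to between 164 and 764 with 1 left out. A level in bulk RNA can differ because fewer cells make a transcript or because each cell holds less of it, and these cannot be told apart. The methods give 3 different mice as the source of the cultures, and the p-values measure the spread between these libraries.

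Levels of different genes were compared per length, as FPKM over the merged exons of each gene. In vehicle-treated myoblasts Csf1 was the most abundant of the 10, at 10.5 ± 2.81 FPKM (SD, n = 3), and its range lay apart from that of Ccl2, the next in order, at 3.08 ± 0.674 FPKM. Cxcl1 followed at 2.62 ± 1.10, Cxcl12 at 1.64 ± 0.938, Cxcl5 at 1.04 ± 0.787 and Ccl7 at 0.981 ± 0.261 FPKM. From Ccl2 to Ccl7, neighbours in this order overlapped between libraries. Lengths were those of the merged exons of all annotated transcripts, so a gene whose transcripts differ in length, such as Cxcl12, can have a level per length that is too low. Lif (0.168 ± 0.0844 FPKM), Il33 (0.136 ± 0.0160), Ccl5 (0.133 ± 0.230) and Il6 (0.0780 ± 0.0518) formed the lower end, apart from Ccl7 and overlapping with each neighbour.

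**Figure D2:**
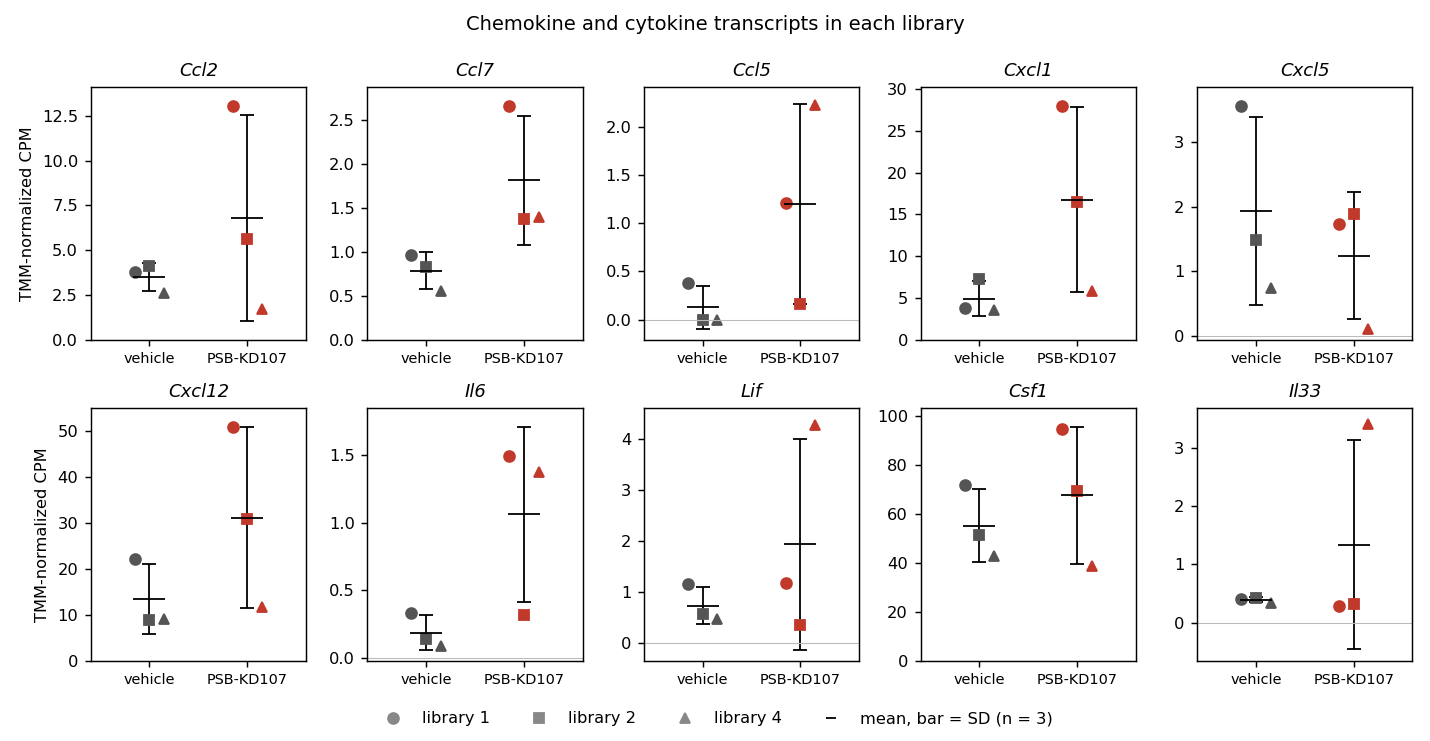
TMM-normalized CPM (vertical axes, 1 panel for each of the 10 transcripts) in the 3 vehicle libraries (grey) and the 3 PSB-KD107 libraries (red), with symbols for the library number, and lines and bars for the mean and SD. PSB-KD107 library 1 is the highest of the 6 for Ccl2, Ccl7, Cxcl1, Cxcl12, Il6 and Csf1, and PSB-KD107 library 4 for Ccl5, Lif and Il33.

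The promoters of Il6, Cxcl1 and Csf1 are shown because they are the 3 of the 7 promoter entries for these genes (6 of the 10 had an entry in RefSeq, GRCm38.p6) that held a kappaB consensus, the motif bound by NF-κB. Each line gives the 200 bases before the annotated start, 5′ to 3′ on the strand of the gene, with the kappaB match in capitals.
Il6 (chr5:30012914-30013113, forward strand): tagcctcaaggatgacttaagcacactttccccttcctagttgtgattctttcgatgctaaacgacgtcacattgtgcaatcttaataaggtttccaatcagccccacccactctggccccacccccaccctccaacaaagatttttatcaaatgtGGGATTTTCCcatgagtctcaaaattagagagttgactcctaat
Cxcl1 (chr5:90891045-90891244, forward strand): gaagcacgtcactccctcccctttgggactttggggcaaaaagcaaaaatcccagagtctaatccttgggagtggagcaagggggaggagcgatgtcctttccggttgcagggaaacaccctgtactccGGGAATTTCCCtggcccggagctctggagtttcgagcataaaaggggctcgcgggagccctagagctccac
Csf1 (chr3:107760470-107760669, reverse strand): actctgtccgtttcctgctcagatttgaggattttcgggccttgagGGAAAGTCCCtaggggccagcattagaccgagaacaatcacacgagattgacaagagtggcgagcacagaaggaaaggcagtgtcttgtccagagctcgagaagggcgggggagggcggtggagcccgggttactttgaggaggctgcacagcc
The match ends 35 bases before the start in Il6, 61 bases before it in Cxcl1, where a pair of overlapping matches forms the capitals, and 145 bases before it in Csf1. Over windows from 250 bases before to 50 bases after the start, read on both strands, the kappaB consensus was present in 4.51% of 32851 promoters. The AP-1 motif TGANTCA was found in Il6 and Lif (7.81% of all promoters), the C/EBP motif TTGCNNAA in Il6 and in 1 of the 2 Il33 promoters (10.8%), and TATAAA in both Il33 promoters (13.6%). The interferon response element searched, 2 copies of GAAA on 1 strand with any 2 bases between, was in 0 of the 7 and in 3.44% of all promoters. A match describes the letters in these windows and not binding. Of the genes with a kappaB match, Il6 and Cxcl1 had an unadjusted edgeR p under 0.05 and Csf1 did not.

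The monocyte chemokines Ccl2 and Ccl7 are neighbours on the forward strand of chromosome 11 (GRCm38), at 82035571 to 82037453 and at 82045712 to 82047525. Ccl2 was at 3.78, 4.10 and 2.64 CPM in vehicle libraries 1, 2 and 4, and at 13.1, 5.65 and 1.73 CPM in the PSB-KD107 libraries of the same numbers. PSB-KD107 library 1 held the highest Ccl2 level and PSB-KD107 library 4 the lowest of all 6, so that the groups overlapped. The fitted log2 fold change was 0.96 (SE 0.68, edgeR adjusted p = 0.712), and it was 0.05 without PSB-KD107 library 1 and 1.42 without PSB-KD107 library 4.

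Ccl7, which acts on Ccr2 and also on Ccr1 and Ccr3, was at 0.969, 0.831 and 0.558 CPM with vehicle and at 2.66, 1.38 and 1.40 CPM with PSB-KD107. It was the only transcript of the 10 whose groups did not overlap, as was the case, with higher treated levels, for 9.2% of all genes tested. No transcript of the 10 was lower without overlap, beside 6.59% of all genes. The mean went from 0.786 ± 0.209 to 1.82 ± 0.734 CPM (SD, n = 3), a log2 fold change of 1.21 (SE 0.40, 95% interval 0.23 to 2.18). This difference gave an adjusted p = 0.438 with edgeR, and p = 0.1 in the exact two-sided permutation test, the smallest that 3 against 3 libraries allow. Between 0.80 and 1.38 remained when any single library was left out. For the other 9 transcripts the exact permutation p lay between 0.2 and 1.

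Ccl5 lies on the reverse strand of the same chromosome, at 83525778 to 83530518, and its transcript was near the floor with vehicle. Vehicle libraries 1, 2 and 4 held 15, 0 and 0 Ccl5 counts, and those with PSB-KD107 held 61, 5 and 81, or 1.21, 0.160 and 2.23 CPM with treatment. PSB-KD107 libraries 1 and 4 were above all vehicle libraries, and PSB-KD107 library 2 was below vehicle library 1. The fitted log2 fold change of 3.15 had an SE of 1.5 (edgeR adjusted p = 0.599) and was 2.37 at its lowest with 1 library left out. The treated mean was 9.41-fold the mean of all 3 vehicle libraries. Against the floor of 3 counts in vehicle libraries 2 and 4 alone it was at least 12.9-fold higher, a comparison that leaves out vehicle library 1. PSB-KD107 library 2, at 0.160 CPM, was itself near those floors of 0.0859 and 0.0931 CPM. T cells are a known source of Ccl5, and their 6 markers summed to between 0.0620 and 0.306 CPM with vehicle and between 0.495 and 1.03 CPM with PSB-KD107. Cd2 was at 0 in all libraries, and the kinase gene Lck made up most of the sum in PSB-KD107 libraries 1 and 2, with 0.954 and 0.481 CPM. The part of these markers in the Ccl5 values was not tested.

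Cxcl1 and Cxcl5 both bind Cxcr2 and lie on the forward strand of chromosome 5, at 90891241 to 90893115 and 90759360 to 90761624. Their fitted differences had opposite signs, and that of Cxcl5 changed sign without vehicle library 1. Cxcl1 was at 3.85, 7.30 and 3.60 CPM with vehicle and at 28.0, 16.5 and 5.89 CPM with PSB-KD107. PSB-KD107 libraries 1 and 2 exceeded every vehicle library, and PSB-KD107 library 4 lay below vehicle library 2. The log2 fold change was 1.77 (SE 0.60, 95% interval 0.31 to 3.23, edgeR adjusted p = 0.445, DESeq2 adjusted p = 0.0627). It ranged from 1.16 to 2.17 with each library left out in turn. Without PSB-KD107 library 4 DESeq2 gave 2.16 (adjusted p = 8.89e-05) and edgeR 2.17 (adjusted p = 0.189). DESeq2 did not call Cxcl1 with any other single library left out.

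Cxcl5 was at 3.57, 1.49 and 0.744 CPM with vehicle and at 1.73, 1.89 and 0.110 CPM with PSB-KD107. Vehicle library 1 held the highest level and PSB-KD107 library 4 the lowest, with 4 counts, and the groups overlapped. Its log2 fold change of -0.64 (SE 1.00, edgeR adjusted p = 0.867) became 0.15 without vehicle library 1 and -0.10 without PSB-KD107 library 4. The ratio of Cxcl1 to Cxcl5 counts is 1 of 4 ratios between pairs of these genes that were chosen after their values were seen, and they are given without a test. On the log2 scale it was 0.11, 2.29 and 2.27 in the vehicle libraries and 4.02, 3.12 and 5.74 in the PSB-KD107 libraries, and every treated library was above every vehicle library. The groups overlapped for Ccl2 over Ccl7 (means 2.17 with vehicle and 1.54 with PSB-KD107) and for Csf1 over Cxcl12 (2.15 and 1.26).

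Cxcl12, a chemokine that retains stem and progenitor cells in their niche, lies on chromosome 6 at 117168535 to 117181367, forward strand. Its level was 22.3, 8.96 and 9.03 CPM with vehicle and 51.0, 30.9 and 11.7 CPM with PSB-KD107. PSB-KD107 libraries 1 and 2 exceeded all vehicle libraries, and PSB-KD107 library 4 lay between them. The log2 fold change of 1.22 (SE 0.61, edgeR adjusted p = 0.615) was 0.64 without PSB-KD107 library 1 and 1.79 without vehicle library 1. Without PSB-KD107 library 4 DESeq2 gave 1.6 (adjusted p = 0.0391) and edgeR 1.61 (adjusted p = 0.352). DESeq2 did not call Cxcl12 with any other single library left out. Against the vehicle library of its own number, Cxcl12 was higher by 1.19, 1.77 and 0.37 on the log2 scale in PSB-KD107 libraries 1, 2 and 4.

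The gp130 cytokine Il6, whose promoter is printed above, had the smallest edgeR p-value of the 10. It lies on the forward strand of chromosome 5 at 30013114 to 30019981, and its counts were few: 13, 5 and 3 with vehicle and 75, 10 and 50 with PSB-KD107. As CPM these were 0.332, 0.143 and 0.0931 with vehicle and 1.49, 0.321 and 1.38 with treatment. PSB-KD107 libraries 1 and 4 were above every vehicle library, and PSB-KD107 library 2 was just under vehicle library 1. The mean was 5.61-fold higher with treatment, with a log2 fold change of 2.46 (SE 0.74, 95% interval 0.65 to 4.26, edgeR adjusted p = 0.404, DESeq2 adjusted p = 0.0891). Leaving out each library in turn gave values from 2.12 to 3.13. DESeq2 called Il6 without PSB-KD107 library 2 (2.90, adjusted p = 0.0046) and without vehicle library 1 (3.16, adjusted p = 0.034), and not with any other library left out. In those fits edgeR gave adjusted p = 0.277 without PSB-KD107 library 2 and 0.382 without vehicle library 1.

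Lif, on the forward strand of chromosome 11 at 4257557 to 4272514, keeps myoblasts and stem cells proliferating. It was at 1.15, 0.573 and 0.465 CPM with vehicle and at 1.17, 0.353 and 4.26 CPM with PSB-KD107. PSB-KD107 library 4 was high, library 1 of both groups was alike, and PSB-KD107 library 2 was the lowest of all. The log2 fold change was 1.40 (SE 0.90, edgeR adjusted p = 0.686) and 0.08 without PSB-KD107 library 4. As log2 ratios of counts, another of those 4 ratios, Lif exceeded Il6 by 1.79, 2.00 and 2.32 with vehicle. With PSB-KD107 the same ratios were -0.35, 0.14 and 1.63, each below the lowest vehicle value.

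Csf1, on the reverse strand of chromosome 3 at 107741048 to 107760469, was at 71.6, 51.4 and 42.7 CPM with vehicle and at 94.6, 69.3 and 38.6 CPM with PSB-KD107. In both groups library 1 was the highest and library 4 the lowest, and PSB-KD107 library 4 was the lowest of the 6. The log2 fold change was 0.29 (SE 0.35, 95% interval -0.57 to 1.15, edgeR adjusted p = 0.832), and it was -0.054 without PSB-KD107 library 1.

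Il33, on the forward strand of chromosome 19 at 29925114 to 29960718, was at 0.408, 0.430 and 0.341 CPM with vehicle and at 0.278, 0.321 and 3.41 CPM with PSB-KD107. PSB-KD107 libraries 1 and 2 lay below all vehicle libraries and PSB-KD107 library 4 far above them. The log2 fold change of 1.75 (SE 1.04, edgeR adjusted p = 0.665) therefore turned to -0.40 without that library.

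**Figure D3:**
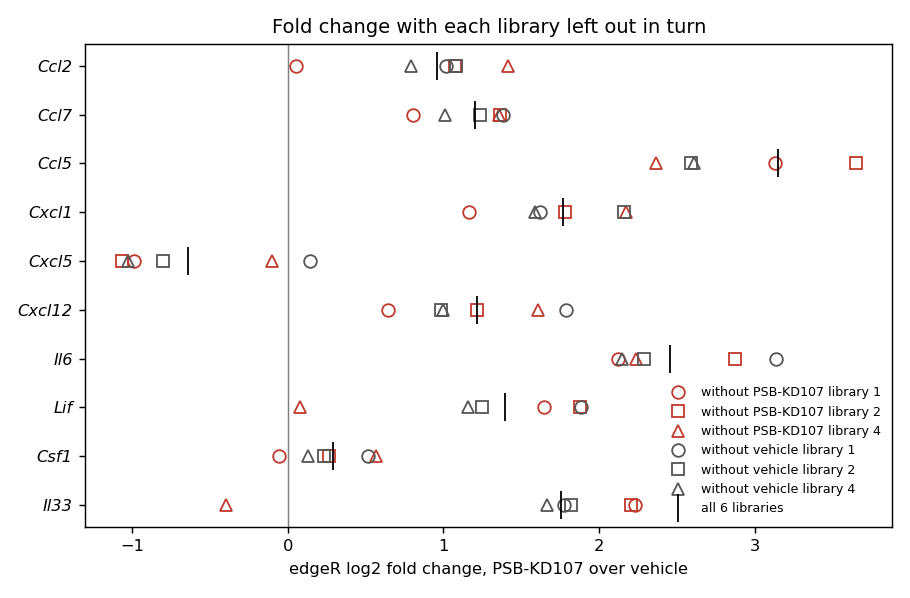
Fitted edgeR log2 fold change (PSB-KD107 over vehicle) of each of the 10 transcripts with all 6 libraries and with each library left out. Ccl2 moves to 0.05 and Csf1 to -0.054 without PSB-KD107 library 1, Lif to 0.08 and Il33 to -0.40 without PSB-KD107 library 4, and Ccl5 without vehicle library 1 is not drawn, because both remaining vehicle libraries were at 0.

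Each treated library had its own set of signals at a higher level when set alone against the mean of log2(CPM + 0.1) over the vehicle libraries. In PSB-KD107 library 1, 6 of 10 transcripts were at least 2-fold above this mean (Ccl2, Ccl7, Ccl5, Cxcl1, Cxcl12 and Il6), beside 6.41% of all genes, and 0 of 10 were at least 2-fold below it, beside 4.26%. In PSB-KD107 library 2 these were Cxcl1 and Cxcl12, 2 of 10 beside 2.82% of all genes, and 0 of 10 were below, beside 2.96%. In PSB-KD107 library 4 they were Ccl5, Il6, Lif and Il33, 4 of 10 beside 9.52%, and Cxcl5 was below by -3.02, 1 of 10 beside 5.91%. No transcript reached 2-fold in all 3 treated libraries. The medians over the 10 were 1.78, 0.62 and 0.56 on the log2 scale in PSB-KD107 libraries 1, 2 and 4. Against the vehicle library of the same number, 6, 3 and 5 of the 10 were at least 2-fold higher in libraries 1, 2 and 4, beside 2.87%, 2.35% and 13.5% of all genes. Cxcl5 was at least 2-fold lower in libraries 1 (-1.01) and 4 (-2.01). These same-number values are descriptions, since the numbers did not pair the libraries throughout.

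**Figure D4:**
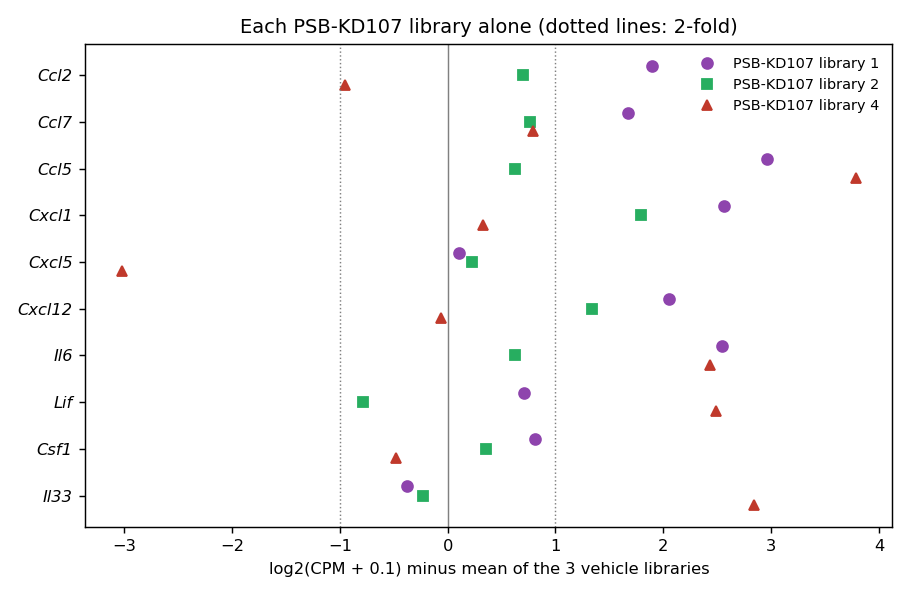
Difference of each PSB-KD107 library from the mean of the 3 vehicle libraries in log2(CPM + 0.1) (horizontal axis), for each of the 10 transcripts, with dotted lines at 2-fold. PSB-KD107 library 1 spans -0.38 to 2.96, library 2 spans -0.78 to 1.80, and library 4 spans -3.02 to 3.78.

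PSB-KD107 library 1 had the highest level of the 6 for 6 of the 10 transcripts, beside 16.4% of all genes, and PSB-KD107 library 4 for 3 of 10, beside the 25.7% given above. PSB-KD107 library 2 was the highest for 0 of 10, beside 13.4%, and Cxcl5 was highest in vehicle library 1. The fitted fold changes of these transcripts had larger SEs than the median gene. An SE also holds counting error, and several of the 10 had few counts, so it does not measure the spread between libraries alone. Their SEs ran from 0.35 to 1.5 with a median of 0.71, against a median of 0.23 over all genes, and 10 of 10 were above that median. The coefficient of variation was larger with PSB-KD107 than with vehicle for 8 of 10, beside 62.1% of all genes. It ran from 11.7% to 173% with vehicle and from 40.5% to 134% with treatment, where the medians over all genes were 14.7% and 19.7%.

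Among the receptors of these signals, Il6ra, the Il6-binding subunit, was the only tested gene whose groups did not overlap. It was at 1.94, 1.80 and 1.92 CPM with vehicle and at 6.96, 4.81 and 3.71 CPM with PSB-KD107, with every treated library above every vehicle library. Its log2 fold change was 1.45 (SE 0.30, edgeR adjusted p = 0.23), and it was called by DESeq2 (adjusted p = 0.0013), also without any single library. The shared subunit Il6st was far more abundant, at 36.1 ± 1.28 FPKM with vehicle beside 0.219 ± 0.00852 FPKM for Il6ra, and its CPM were 400 ± 14.2 and 384 ± 8.63 (log2 fold change -0.06, 95% interval -0.27 to 0.15). The Lif receptor subunit Lifr was at 37.8 ± 12.4 CPM with vehicle and 24.5 ± 9.57 CPM with treatment, a log2 fold change of -0.62 (edgeR adjusted p = 0.657).

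Both Cxcl12 receptors had lower fitted levels. Cxcr4, the signaling receptor, was at 9.90, 21.2 and 22.2 CPM with vehicle and at 6.08, 13.2 and 4.57 CPM with PSB-KD107, and the groups overlapped through vehicle library 1 and PSB-KD107 library 2 (log2 fold change -1.16, SE 0.50, edgeR adjusted p = 0.55). Ackr3, which binds and removes Cxcl12, was at 17.9 ± 7.71 and 11.6 ± 7.82 CPM (-0.62, edgeR adjusted p = 0.781). Il1rap, the partner of the Il33 receptor, was at 5.65 ± 2.01 and 5.80 ± 1.85 CPM. The receptors for the chemokines on leukocytes were at the limit of detection. Ccr1, Ccr2, Ccr3, Cxcr1, Cxcr2 and Ackr1 had 0 counts in all 6 libraries, and Ackr2 and Csf1r had at most 8 counts in any library. Il1rl1 had 22, 8 and 0 counts with vehicle and 1, 0 and 1 with PSB-KD107, too few to be tested. Of the 16 receptors 6 were tested, and their median log2 fold change was -0.34. At an unadjusted edgeR p under 0.05, 1 was higher and 0 were lower, beside 6.47% and 2.93% of all genes. The lower count stayed at 0 with other normalization and with an FPKM filter. It was 2 with DESeq2, 2 without a filter and 1 with limma-voom. The shares of all genes that were lower in these fits were not counted.

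**Figure D5:**
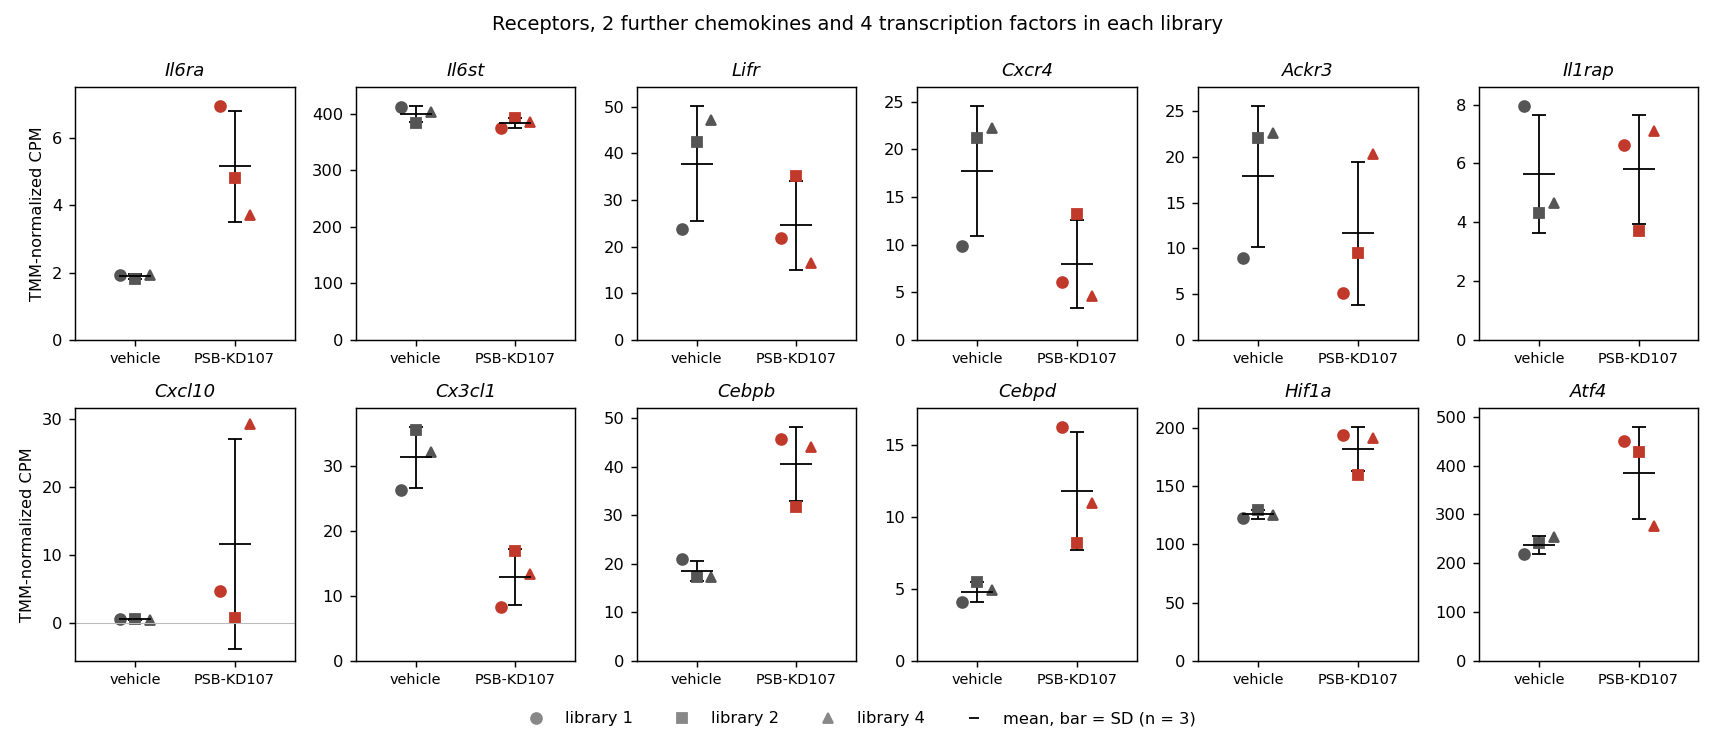
TMM-normalized CPM (vertical axes, 1 panel for each gene) of 6 receptors, 2 further chemokines and 4 transcription factors in the 3 vehicle (grey) and 3 PSB-KD107 (red) libraries, with lines and bars for the mean and SD. Il6ra, Cxcl10, Cebpb, Cebpd, Hif1a and Atf4 are higher and Cx3cl1 is lower in every treated library than in any vehicle library, and Cxcl10 reaches 29.2 CPM in PSB-KD107 library 4. Over all genes tested, 9.2% were higher and 6.59% lower without overlap. The chemokines and transcription factors were chosen by their p-values or after their values were seen.

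Of 30 further chemokine ligands with a single row, 7 were tested and 7 were at 0 in all libraries. Cx3cl1, a membrane-anchored chemokine that attracts monocytes through Cx3cr1, was at 26.3, 35.6 and 32.1 CPM with vehicle and at 8.27, 16.8 and 13.4 CPM with PSB-KD107. Its groups did not overlap, and the log2 fold change was -1.29 (SE 0.28, edgeR adjusted p = 0.251, DESeq2 adjusted p = 0.0024). DESeq2 did not call Cx3cl1 without vehicle library 2 (adjusted p = 0.107) or 4 (adjusted p = 0.070). Cxcl10, an interferon-induced T cell chemokine, was at 0.587, 0.516 and 0.403 CPM with vehicle and at 4.63, 0.738 and 29.2 CPM with treatment, all treated libraries above all vehicle libraries (log2 fold change 4.51, SE 1.32, edgeR adjusted p = 0.382, DESeq2 adjusted p = 8.14e-04). Without PSB-KD107 library 4 its log2 fold change was 2.42 with edgeR (adjusted p = 0.375) and 2.41 with DESeq2 (adjusted p = 0.081), and DESeq2 also did not call Cxcl10 without vehicle library 1 (adjusted p = 0.063). Ccl28, a mucosal chemokine, had a log2 fold change of -1.0 (edgeR adjusted p = 0.611). Of the 7 tested chemokines, the groups did not overlap for 1 higher and 2 lower, beside 9.2% and 6.59% of all genes. DESeq2 called 2 of the 7, beside 2.77% of the genes to which it gave an adjusted p. In this list 1 gene was higher and 1 lower at an unadjusted edgeR p under 0.05, beside 6.47% and 2.93% of all genes. The median was -0.62. Of 18 further cytokines 10 were tested, with 0 higher and 0 lower beside the same shares, and a median of 0.06. The smallest edgeR p-values among them were those of Il34, an alternative ligand of Csf1r (-0.48, adjusted p = 0.734), Il18 (-0.50, adjusted p = 0.766) and the gp130 ligand Clcf1 (-0.44, adjusted p = 0.779).

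Transcription factors and RNA decay factors known to act on such transcripts were all tested, 21 of 21. Of these, 5 were higher and 1 was lower at an unadjusted edgeR p under 0.05, beside 6.47% and 2.93% of all genes. Their median log2 fold change was 0.18. The groups did not overlap for 6 higher and 1 lower of the 21, beside 9.2% and 6.59% of all genes. DESeq2 called 3 of the 21, beside 2.77% of the genes to which it gave an adjusted p. Cebpb, a factor of the C/EBP family that drives Il6 transcription, was at 20.9, 17.2 and 17.3 CPM with vehicle and at 45.8, 31.8 and 44.1 CPM with PSB-KD107. Its groups did not overlap, and its log2 fold change was 1.13 (SE 0.18, edgeR adjusted p = 0.184, DESeq2 adjusted p = 8.78e-05), and DESeq2 called it without any single library too. Cebpd, of the same family, was at 4.06, 5.44 and 4.90 CPM and at 16.2, 8.15 and 10.9 CPM, also without overlap (1.30, SE 0.30, edgeR adjusted p = 0.264, DESeq2 adjusted p = 0.0057). The hypoxia factor Hif1a went from 126 ± 3.54 to 182 ± 19.2 CPM (0.53, SE 0.11, edgeR adjusted p = 0.228, DESeq2 adjusted p = 0.016). DESeq2 called neither Cebpd (adjusted p = 0.051 and 0.086) nor Hif1a (adjusted p = 0.171 and 0.184) without vehicle library 2 or 4, nor Hif1a without PSB-KD107 library 1 (adjusted p = 0.0998). The other 2 that were higher at the unadjusted threshold were Atf4 and Nfkbiz. The lower one at that threshold was the NF-κB subunit Relb, with a log2 fold change of -0.30 (edgeR adjusted p = 0.531). Without PSB-KD107 library 1, and likewise without PSB-KD107 library 4, 4 genes of this list were higher at that threshold. The share of all genes was not counted there.

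The JAK and STAT relay downstream of Il6 and Lif and its feedback genes were tested in full, 13 of 13. Of these, 1 was higher and 0 were lower at an unadjusted edgeR p under 0.05, beside 6.47% and 2.93% of all genes. Their median log2 fold change was 0.04. The higher count is 0 with DESeq2 and 0 with limma-voom. Cish, a feedback inhibitor induced by STAT signaling (0.46, edgeR adjusted p = 0.681), and Jak1, the kinase bound to gp130 (0.14, adjusted p = 0.693), did not pass that threshold.

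Markers of other cell types had low totals, except those of pericytes and smooth muscle. Markers of fibro-adipogenic progenitors and fibroblasts, which make several of these signals in muscle, summed to between 1.61 and 3.29 CPM with vehicle and to 3.84, 1.67 and 9.90 CPM in PSB-KD107 libraries 1, 2 and 4, with Lum at 0. In PSB-KD107 library 4, the highest for Ccl5, Lif and Il33, Ly6a (the Sca-1 gene) was at 8.36 CPM and between 0.155 and 1.29 CPM in the other libraries. Ly6a made up most of that sum. In the same library Pdgfra was also the highest of the 6, at 1.46 CPM beside 0.609 to 1.17 CPM in the other libraries. Dcn there had 1 count beside 18 to 63 in the other 5 libraries. Dpt had 2 counts there and 2 in vehicle library 4, and Thy1, Pi16 and Col15a1 were at 0 there. Endothelial markers summed to between 0.310 and 1.40 CPM with vehicle and between 0.385 and 1.13 CPM with treatment, with Emcn and Tie1 at 0. Pericyte and smooth muscle markers summed to between 190 and 276 CPM with vehicle and between 113 and 140 CPM with treatment, a sum made up mostly of Notch3 and Abcc9. Of the 6, only Notch3 was lower at an unadjusted edgeR p under 0.05 (edgeR adjusted p = 0.281, DESeq2 adjusted p = 0.0103), Rgs5 and Cspg4 had log2 fold changes of 0.34 and -0.02, and Kcnj8 was at 0 with vehicle. Of the myoblast markers 2 of 10 were lower at this threshold, beside 2.93% of all genes. These were the stem cell factor Pax7 (-0.90, edgeR adjusted p = 0.209, DESeq2 adjusted p = 0.0019) and the differentiation factor Myog (-0.49, edgeR adjusted p = 0.469, DESeq2 adjusted p = 0.214). The part of these markers in the levels of the 10 signals was not tested.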

How the data were processed

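The data are RNA-seq libraries of mdx myoblasts, 3 with vehicle and 3 with PSB-KD107. Per the study's methods, polyadenylated RNA was sequenced and aligned with STAR, and the submitters' processing notes give mm10. The authors deposited raw counts per gene, without normalization, which could split reads between near-identical genes. The counting program and its strand setting are not given in the sources used here. The table names libraries 1, 2 and 4 and the sample records 1, 2 and 3, so libraries 4 were assigned to a group only. No column of another series' samples was present.

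The 10 transcripts and the lists of related genes were chosen with earlier results of these data known. Counts were analysed in R 4.3.3 with edgeR 4.0.16 (filterByExpr, TMM, quasi-likelihood test), limma 3.58.1 and DESeq2 1.42.0, and in Python 3.11.15. Adjustment (Benjamini-Hochberg) was over the 14165 genes tested with edgeR and limma-voom, and over 14698 genes with DESeq2, with a threshold of 0.05. SEs were derived from the fold change and its F statistic. Single values used an offset of 0.1 CPM on the log2 scale. FPKM used exon lengths of GENCODE M21 (GRCm38). Exact permutation tests were two-sided. Scripts were tested on simulated counts.

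Named genes were the 10 transcripts, their receptors, the 3 tested genes of each other list with the smallest edgeR p, any called by DESeq2, and the genes with the nearest profiles to Csf1 and Il6. Atf4, Nfkbiz, Relb, Lck, Pax7, Myog and the other single markers with values were named after their values were seen. A few genes of these lists are not reported here. Ccl21a and Ccl27a were left out of the chemokine list, as each matched more than 1 row. The marker Itgam matched 2 rows, and only the first was used.

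Alternatives were other normalization, no filter, an FPKM filter, DESeq2, limma-voom, a replicate block and each library left out. List counts without PSB-KD107 library 1 or 4, DESeq2 fits without single libraries, and both tools without single libraries for listed genes that DESeq2 called, were added after seeing the data.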

Additional observations from a re-analysis of the deposited data

How the results depend on the processing

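Of 187 fold changes of the 10 transcripts under 19 alternatives, 179 kept their direction. With single libraries left out, Cxcl5 ran from -1.06 to 0.15 (without vehicle library 1, 0.14 with DESeq2), Csf1 from -0.054 (without PSB-KD107 library 1, -0.045 with DESeq2) to 0.57, and Il33 from -0.40 (without PSB-KD107 library 4, -0.42 with DESeq2) to 2.23. Table and sample records share the numbers 1 and 2, and a replicate block on those 4 libraries leaves 1 residual degree of freedom. It called 2456 genes and 6 of the 10 transcripts (Ccl2, Ccl7, Cxcl1, Cxcl12, Il6 and Csf1), had 7 at an unadjusted p under 0.05, and turned Lif to -0.21 and Il33 to -0.49. The shares of all genes were not worked out for this fit, so its counts of 6 and 7 have no background beside them and are not read as a result about the 10. A replicate block over all 6 libraries by the numbers of the table called 0 genes. The numbers entered no other test as pairs, because deviations from the group means correlated across genes at 0.63 for number 1, 0.52 for number 2 and -0.13 for number 4, and vehicle library 4 correlated best with PSB-KD107 library 2 (0.64). Over all genes, edgeR called 8 without a filter, DESeq2 called 407, edgeR called 0 with each library left out, and DESeq2 called 613, 175 and 164 without vehicle libraries 1, 2 and 4 and 275, 764 and 672 without PSB-KD107 libraries 1, 2 and 4. Of the 10, DESeq2 then called 0 to 2, namely Ccl5 and Il6 without vehicle library 1, Il6 without PSB-KD107 library 2, and Cxcl1 and Cxcl12 without PSB-KD107 library 4. The number at an unadjusted p under 0.05 was 5 with DESeq2, 0 to 5 with edgeR and 2 to 6 with DESeq2 when single libraries were left out. The shares of all genes at that threshold were not counted in the fits with a library left out. The median log2 fold change stayed between 0.98 and 1.70 with edgeR when single libraries were left out. Of 90 list counts 21 moved by over 1.5 times. The FPKM filter removed Il6, Lif and Il33. The causes were not tested. With 3 libraries per group and an SE of up to 1.5, the 95% intervals of all 10 transcripts spanned more than 2-fold.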

Other observations

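The genes with the profiles nearest to those of Csf1 and Il6 over the 6 libraries were looked up among 12274 genes with a mean of at least 1 CPM, by the root-mean-square difference of log2(CPM + 0.1) centred on each gene's mean. For Csf1 these were mt-Nd1, a mitochondrial subunit of complex I (difference 0.0614), Adamtsl5 (0.0623) and Blvrb, a biliverdin reductase (0.0822). Adamtsl5 was at 26.7, 21.1 and 16.8 CPM in the vehicle libraries and at 39.4, 28.5 and 14.6 CPM in the PSB-KD107 libraries, highest in library 1 and lowest in library 4 of each group, the order that Csf1 had.

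For Il6 the nearest were Nkain1 (0.130), the immediate early gene Ier3 (0.200) and Cxadr, a cell adhesion protein (0.228). Ier3 was at 5.36, 4.61 and 3.20 CPM with vehicle and at 24.2, 7.31 and 21.5 CPM with PSB-KD107, so that PSB-KD107 libraries 1 and 4 were high and library 2 was nearer to vehicle, the pattern that Il6 had. The 6 libraries are shared by all these profiles, and nothing about shared control follows from their likeness.

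Cxcl2, a neutrophil chemokine close to Cxcl1 that had too few counts to be tested, was counted 0, 2 and 1 times in vehicle libraries 1, 2 and 4 and 30, 9 and 1 times in PSB-KD107 libraries 1, 2 and 4. It was named after its values were seen. The order of the treated libraries was that of Cxcl1.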
